A study of Mus musculus with 12 samples.

Results

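Ribosome biogenesis is carried out by a large set of nucleolar proteins, and 46 genes encoding such proteins were followed here through mouse thymocytes and NPM-ALK-driven T cell lymphoma cells. The genes were chosen by name, as known ribosome biogenesis and nucleolar genes, with earlier results of these data known. All 46 were found among the 50600 gene identifiers of the deposited count files, and all 46 passed the filter on low counts that left 16052 genes for testing. They cover transcription of ribosomal RNA (RNA polymerase I, 4 genes), the small nucleolar ribonucleoproteins or snoRNPs (8 genes), assembly of the small subunit (15 genes), assembly of the large subunit (15 genes) and 4 abundant nucleolar proteins with several roles.

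Ribosomes are built in the nucleolus, where RNA polymerase I transcribes a long precursor RNA that is cleaved, chemically modified and folded with ribosomal proteins into a small and a large subunit. The snoRNPs guide the modifications, one class (box C/D) placing methyl groups and the other (box H/ACA) converting uridine to pseudouridine, while assembly factors bind the precursor for a limited time and then leave it. Growing and dividing cells need many ribosomes, and many genes of this pathway are well-known targets of the transcription factor MYC.

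The study asked whether the DNA methyltransferase DNMT1 is needed for lymphoma driven by NPM-ALK, a fusion of nucleophosmin with the kinase ALK found in anaplastic large cell lymphoma. RNA sequencing covered 12 libraries, 1 per mouse, in 4 groups of 3. Ctrl mice carried floxed Dnmt1 alleles (DNMT1 fl/fl) without a Cre and are also titled wt, and KO mice had the same alleles with CD4-CRE, which deletes Dnmt1 in T cells. ALK samples were T cell lymphoma cells of NPM-ALK+ mice, for which the labels give no Dnmt1 allele, and ALKKO mice carried NPM-ALK together with DNMT1 fl/fl and CD4-CRE. The human NPM-ALK transgene is driven by Cd4 regulatory elements, so that it and the deletion are limited to cells that use these elements. Ctrl, KO and ALKKO samples were thymocytes, whereas ALK samples were tumor cells, and transgene and cell state therefore cannot be told apart in any comparison with ALK. The methods of the study describe RNA from homogenized thymus and tumor tissue. The mice were 19 to 31 weeks old on a mixed background, and 1 KO mouse (KO2) was the only female.

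The libraries held 12473857 to 18864327 reads on genes, and the 46 genes had between 138 and 25453 reads each in every library. Reads counted for mouse Alk stood at 34.8 to 54.9 counts per 1000000 reads (CPM) in the 6 libraries with the transgene and at 0.107 to 0.431 CPM in the other 6. Dnmt1 was at 444, 487 and 399.6 CPM in Ctrl, at 240.2, 206 and 243 CPM in KO and at 205, 221 and 244 CPM in ALKKO, while ALK spread from 378 to 787 CPM. KO2 stood apart, with 1831 CPM for the sum of 5 B cell markers against 40.4 and 45.8 CPM in the other KO libraries, and with 3546 CPM for the sum of 10 T cell markers against 8356 and 8454 CPM. KO3 stood apart in heart muscle markers, with 1469 CPM of Myh6, 2242 CPM of Nppa and 428 CPM of Actc1, each at 7.29 CPM or less in the other 11 libraries. T cell markers were also low in ALK, with sums of 2325 to 2653 CPM against 8100 to 9789 CPM in Ctrl. Of the 10 T cell markers 9 were tested, and in ALK 5 fell, Cd4, Cd8a, Cd8b1, Cd3g and Rag2, from log2 -6.31 in Cd8b1 to -1.90 in Cd3g (edgeR adjusted p = 0.000133 and 0.0299). Cd3d, Cd3e and Lck were below Ctrl in every tumor without passing, Ptcra had a log2 fold change of 2.07 that passed in DESeq2 but not in edgeR (adjusted p = 0.0595), with ALK3 at 32.5 CPM below every Ctrl library and ALK1 at 424 CPM, and Rag1 was listed at 0 in all 12 libraries. Of 10 markers of thymic epithelium and stroma, Col1a1 and Col1a2, which encode collagen of connective tissue cells, rose in ALK, and the epithelial genes Krt8 and Psmb11 fell. Col1a1 was at 701, 379.7 and 243 CPM in ALK against 26.7, 14.1 and 28.5 CPM in Ctrl, and Col1a2 at 574, 407 and 303 CPM against 46.3, 32.3 and 47.4 CPM. The other 6 genes did not pass in edgeR. Among these, Dcn was at 45.6, 22.9 and 37.0 CPM in ALK, below the 107, 83.1 and 134 CPM in Ctrl. Pdgfra overlapped, at 5.90, 3.92 and 15.8 CPM in ALK against 5.17, 4.87 and 10.7 CPM in Ctrl. Psmb11, a proteasome subunit of cortical thymic epithelium, was at 0.0671, 0.348 and 0.312 CPM against 106, 129.8 and 113 CPM, and the sum of the 10 genes was 1018 to 1472 CPM in ALK and 900.5 to 995 CPM in Ctrl. The part of these cells in the results for ALK was not tested. Levels in bulk RNA are shares of all messenger RNA, so a different mix of cells and a different amount of RNA per cell cannot be told apart.

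Ribosome biogenesis genes were higher in ALK tumor cells than in Ctrl thymocytes as a group. The median of the 46 log2 fold changes was 1.003, which is 2.004-fold, against 0.05 over all 16052 genes tested, and 45 of 46 genes had a positive value. With the thresholds of the study (adjusted p under 0.05 and a log2 fold change beyond 1), 23 of 46 were called higher and 0 lower, while 8.41% of all genes were called higher. With the adjusted p alone, 39 of 46 rose, against 14.8% of all genes, and 1 fell, Wdr12. In 42 of 46, the lowest ALK value lay above the highest Ctrl value, which held for 21.2% of all genes. Reads on the 46 genes made up 0.371 to 0.416% of all gene reads in Ctrl and 0.639 to 0.830% in ALK.

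Each of the 3 tumors showed the rise. Set against the mean of the 3 Ctrl libraries on the log2(CPM + 1) scale, the median over the 46 genes was 0.94 in ALK1, 1.19 in ALK2 and 0.72 in ALK3. In ALK1 and ALK2, 45 of the 46 genes exceeded all Ctrl libraries, and in ALK3, 42 did. Of all 16052 genes tested, 6633 did so in ALK1, 6546 in ALK2 and 6467 in ALK3. ALK2 held the highest value of the 3 tumors for 37 genes and ALK3 the lowest for 32. Without ALK2 the number of genes called higher fell from 23 to 11, with the median log2 fold change at 0.86 and 35 genes still past the adjusted p alone in either direction. Under 14 alternative settings all 46 genes kept the sign of their fold change, and 32 of the 39 that rose stayed past the adjusted p in each.

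**Figure D1:**
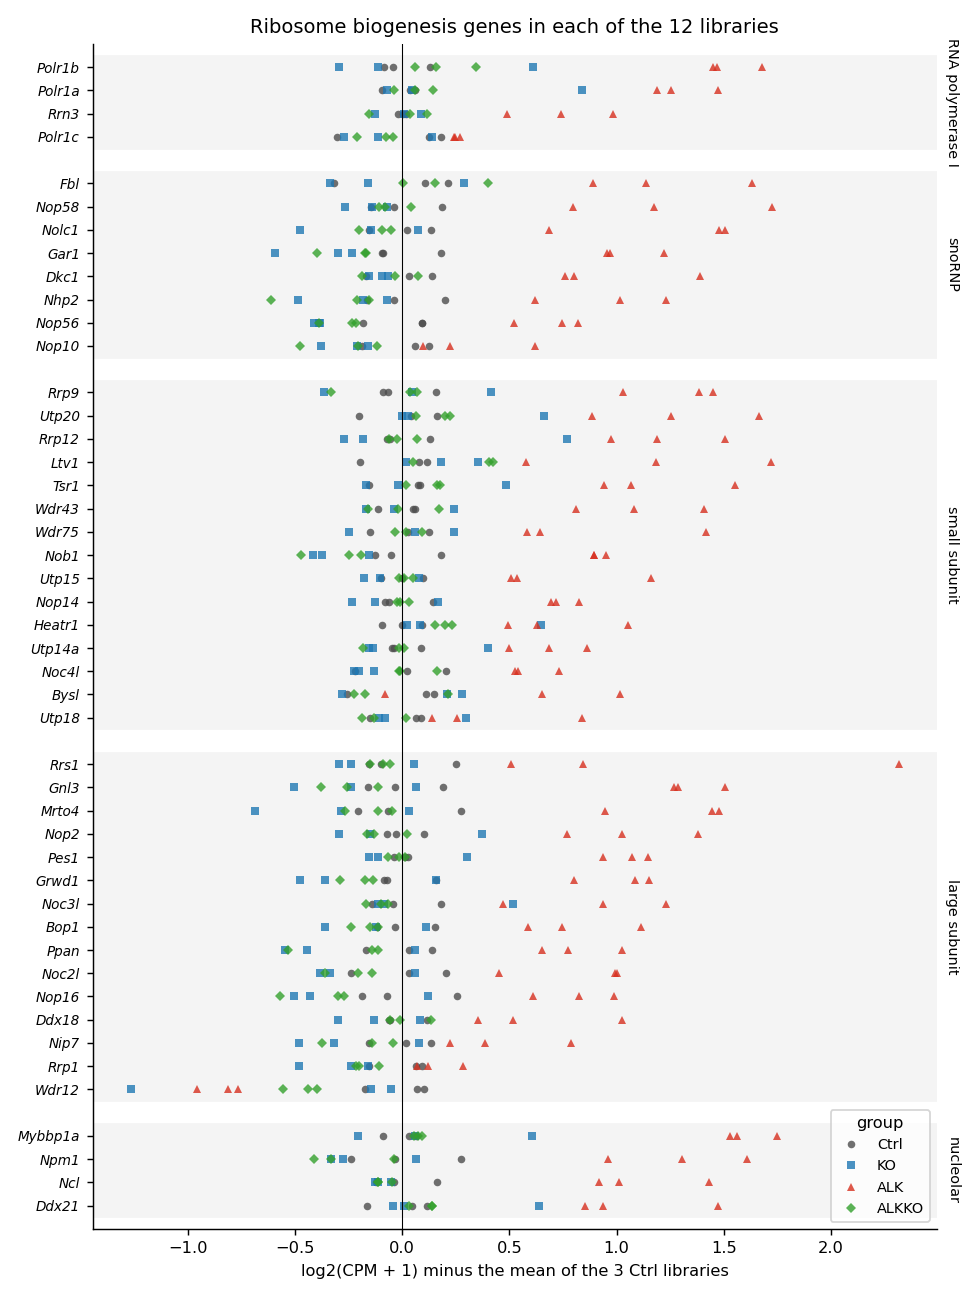
Level of each of the 46 genes in each of the 12 libraries, as log2(CPM + 1) minus the mean of the 3 Ctrl libraries (x axis), with genes grouped by step and ordered by their fold change (y axis) and 1 symbol per library. The red ALK triangles lie to the right of the other groups for most genes, Wdr12 is the exception with all ALK values to the left of Ctrl, and the blue KO symbol that often stands apart is KO2.

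In the comparisons among the 3 groups without tumor cells none of the 46 genes passed the test. Dnmt1 itself, which is deleted in KO, did not pass in KO against Ctrl in edgeR either. There, 0 of all 16052 genes tested passed as lower. A count of 0 in that comparison therefore does not show that the genes were unchanged. Comparing ALKKO with Ctrl, 0 of 46 passed the adjusted p in edgeR (0.187% of all genes did) and 0 in DESeq2 (background 0.723%). An unadjusted p under 0.05 in edgeR was reached by 2, Nop56 and Nob1, and by 510 of all 16052 genes. Both had lower values in ALKKO. Between KO and Ctrl, 0 of 46 passed in edgeR (background 0.0187%) and in DESeq2 (background 0.311%). Here 4 had an unadjusted p under 0.05 in edgeR, Nop56, Gar1, Nob1 and Rrp1, as did 886 of all 16052 genes. For ALKKO against KO, which asks what NPM-ALK did in thymocytes lacking Dnmt1, 0 passed in edgeR (background 0.00623%) or in DESeq2 (background 0.159%). Of the 46, 0 had an unadjusted p under 0.05 in edgeR, against 432 of all 16052 genes. Median log2 fold changes in these comparisons were -0.08, -0.09 and -0.01.

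Few of the 46 genes had values that did not overlap in these comparisons. ALKKO lay wholly above Ctrl for 1 gene, Heatr1 (background 9.91%), and wholly below it for 6, Nop56, Gar1, Nob1, Nop16, Wdr12 and Grwd1 (background 7.56%). For KO against Ctrl the numbers were 0 above (background 6.12%) and 4 below, Nop56, Gar1, Nob1 and Rrp1 (background 6.29%). ALKKO lay wholly above KO for 1 gene, Noc4l (background 4.12%), and wholly below it for 0 (background 2.24%). Nop56, Gar1 and Nob1 thus lay below every Ctrl library in both KO and ALKKO, 2 comparisons that share the Ctrl libraries. The share of all genes that did so in both was not computed, so this is no result about these genes. KO2 held the highest KO value for 41 of the 46 genes, and without it the median log2 fold change moved to -0.20 for KO against Ctrl and to 0.12 for ALKKO against KO, with 0 genes past the threshold in each. Without KO3 these medians were -0.09 and -0.04, again with 0 genes.

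**Figure D2:**
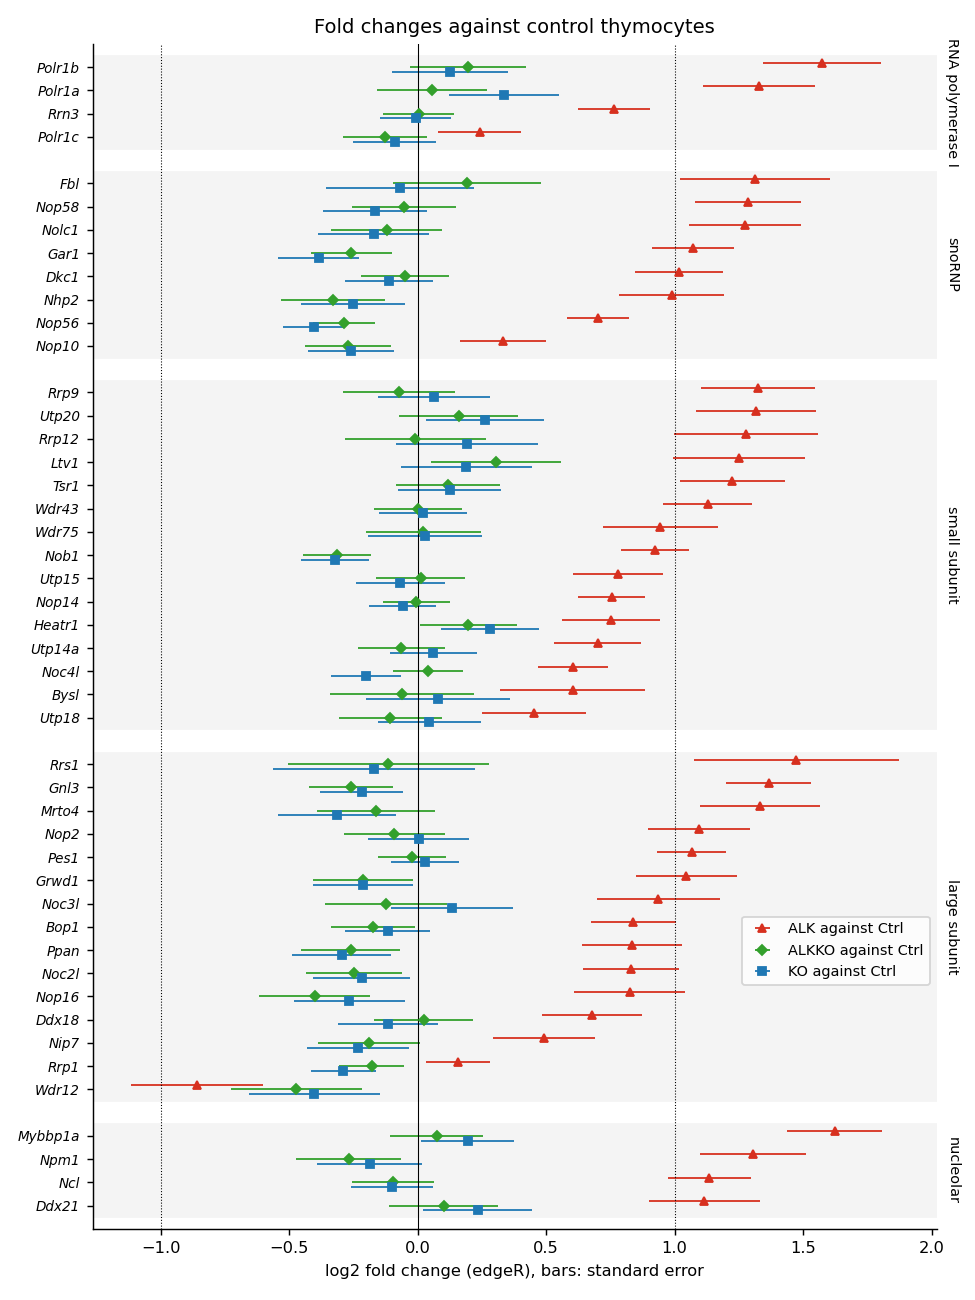
Log2 fold change from edgeR (x axis, bars give the standard error) of each gene (y axis, grouped by step) for ALK, ALKKO and KO against Ctrl, with dotted lines at a log2 fold change of 1 in either direction. ALK values spread from -0.86 for Wdr12 to 1.62 for Mybbp1a, whereas ALKKO values lie between -0.47 and 0.30 and KO values between -0.40 and 0.34.

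Because most of the 46 genes rose in ALK, the promoters of all 46 were searched for CACGTG, the E-box to which MYC and related factors bind, which reads the same on both strands. RefSeq promoter windows of the GRCm38.p6 build, from 250 bases before to 50 after a start, were available for 41 of the genes, some with several starts. CACGTG occurred in 10 of 44 windows of these genes (22.7%), in 16 of 98 windows of the other pathway genes (16.3%) and in 2349 of 32851 windows overall (7.15%). Member promoters are rich in CG dinucleotides, and among the 10722 windows with 12 to 34.7 of them, the span of the middle 80% of the member windows, 11.04% held the motif. The 10 genes with a motif had a median log2 fold change of 1.11 in ALK and the 31 without one a median of 0.83, with overlapping ranges. The stretches are printed here because they show where the letters lie, in capitals, with up to 12 bases on either side on the strand of the gene. A match is a description of the sequence and shows no binding.
Grwd1 (chr7:45830740-45830767, minus strand): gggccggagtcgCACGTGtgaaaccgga
Ltv1 (chr10:13193092-13193121, minus strand): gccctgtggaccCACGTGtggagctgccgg
Mybbp1a (chr11:72441355-72441376, plus strand): gtcttctgagccCACGTGtttg
Nop2 (chr6:125131811-125131840, plus strand): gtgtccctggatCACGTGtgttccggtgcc
Pes1 (chr11:3963965-3963994, plus strand): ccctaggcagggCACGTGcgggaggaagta
Rrn3 (chr16:13780472-13780501, plus strand): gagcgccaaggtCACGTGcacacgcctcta
Rrn3 (chr16:13780639-13780668, plus strand): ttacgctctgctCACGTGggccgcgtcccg
Tsr1 (chr11:74898092-74898121, plus strand): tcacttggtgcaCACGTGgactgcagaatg
Utp18 (chr11:93885769-93885798, minus strand): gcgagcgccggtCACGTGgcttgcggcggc
Utp20 (chr10:88826765-88826789, minus strand): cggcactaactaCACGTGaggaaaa
Wdr43 (chr17:71616220-71616249, plus strand): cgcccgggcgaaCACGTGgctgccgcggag
In Rrn3 the 2 matches begin 48 and 215 bases before the start, in Nop2 60 bases and in Utp18 20 bases before it. The 7 others begin inside the transcribed part, from base 3 in Pes1 to base 41 in Mybbp1a. Utp18 carried a match and had one of the smaller fold changes, while Polr1b, Gnl3 and Ncl had none in these windows and rose.

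RNA polymerase I transcribes the ribosomal RNA precursor, and 3 of its 4 genes rose in ALK. Polr1b encodes the second-largest subunit, which forms the active centre together with Polr1a. Its level was 23.2, 23.9 and 27.1 CPM in Ctrl and 81.3, 70.1 and 69.1 CPM in ALK. KO mice had 20.0, 38.2 and 22.7 CPM and ALKKO mice 27.6, 25.7 and 31.6 CPM. Every tumor lay above all 9 thymocyte libraries, KO2 being the highest of these. The log2 fold change in ALK against Ctrl was 1.57 ± 0.23 (SE; edgeR adjusted p = 0.00128), the largest of the step. Polr1a, the largest subunit, rose by a similar amount (2.51-fold, adjusted p = 0.0022).

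Rrn3, the factor that makes the polymerase competent to start at the ribosomal promoter, had the highest mean CPM of the step. It stood at 61.3, 62.9 and 62.3 CPM in Ctrl and at 105, 124 and 87.7 CPM in ALK. Values were 56.9, 66.1 and 62.5 CPM in KO and 55.8, 63.8 and 67.5 CPM in ALKKO. The 9 thymocyte libraries were tightly grouped and the tumors lay above them, ALK3 the nearest. Rrn3 rose 1.70-fold (log2 0.76 ± 0.14, edgeR adjusted p = 0.00334), which is below the fold threshold. Polr1c encodes a subunit shared with RNA polymerase III. It measured 45.7, 47.6 and 33.7 CPM in Ctrl and 49.6, 50.6 and 49.7 CPM in ALK, so that the groups were separated by a narrow gap only. KO and ALKKO had 38.6, 46.1 and 34.5 CPM and 36.0, 40.6 and 39.7 CPM. Its log2 fold change of 0.24 ± 0.16 did not pass the test (adjusted p = 0.279).

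Of the 8 snoRNP genes, 7 rose in ALK and 5 passed the fold threshold as well, with a median log2 fold change of 1.04. Nop58 and Nop56 are the paired scaffold proteins of the box C/D particles, and Fbl (fibrillarin) is their methyltransferase. Nop58, the gene with the highest mean CPM of the step, was at 93.8, 118 and 101 CPM in Ctrl and at 236, 346 and 182 CPM in ALK. In KO it was at 86.1, 94.3 and 98.8 CPM and in ALKKO at 98.3, 96.5 and 107 CPM. ALK2 was by far the highest and no tumor overlapped with any thymocyte library. The rise was 2.44-fold (log2 1.29 ± 0.21, edgeR adjusted p = 0.00195).

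Nop56 had a smaller log2 fold change than Nop58, and the difference between the genes was not tested. Levels were 124, 124 and 102 CPM in Ctrl and 195, 206 and 167 CPM in ALK. They were 87.1, 88.5 and 88.9 CPM in KO and 99.8, 88.6 and 98.5 CPM in ALKKO, all below the lowest Ctrl value. The log2 fold change was 0.70 ± 0.12 in ALK against Ctrl (edgeR adjusted p = 0.00261) and 0.99 ± 0.12 in ALK against ALKKO (adjusted p = 0.00066). Fbl had only 8.23 to 34.7 CPM over the Ctrl and ALK libraries, and 70.4% of the 50-base windows of its transcript also occur in transcripts of other genes, so that its counts are partial. The tumors gave 34.7, 20.3 and 24.3 CPM and the Ctrl libraries 8.23, 12.3 and 11.4 CPM. KO gave 8.10, 13.1 and 9.28 CPM and ALKKO 11.8, 10.5 and 14.2 CPM. As far as counted, Fbl was higher in each tumor than in any thymocyte library and had the largest fold change of the step (2.48-fold, adjusted p = 0.00838).

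The box H/ACA particles consist of Dkc1 (dyskerin), the pseudouridine synthase, with Nhp2, Nop10 and Gar1. Dkc1 was at 66.7, 82.8 and 76.9 CPM in Ctrl and at 132, 198 and 128 CPM in ALK. KO had 67.3, 71.7 and 70.3 CPM and ALKKO 65.9, 73.4 and 79.2 CPM. All tumors exceeded all thymocyte libraries, and Dkc1 rose 2.02-fold (log2 1.02 ± 0.17, edgeR adjusted p = 0.00252). In 7 of the 14 alternatives its log2 fold change dropped to 1 or less, with the adjusted p still passed. Nhp2 and Gar1 rose by similar amounts (1.98-fold and 2.10-fold, adjusted p = 0.00585 and 0.00134). Nop10, the smallest protein of the particle, was the exception, at 59.3, 62.0 and 49.8 CPM in Ctrl and 66.4, 87.7 and 60.9 CPM in ALK. Its values were 48.9, 50.7 and 43.4 CPM in KO and 40.4, 52.3 and 49.1 CPM in ALKKO. Tumor and control values of Nop10 overlapped and the difference did not pass (log2 0.33 ± 0.17, adjusted p = 0.158), although ALK against ALKKO did (log2 0.60, adjusted p = 0.0238). Nolc1, a nucleolar phosphoprotein that escorts both kinds of snoRNP, rose 2.42-fold (adjusted p = 0.00264).

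Among the 15 genes for assembly of the small subunit, 13 rose in ALK, 6 of them beyond the fold threshold, and the median log2 fold change was 0.92. Wdr43, a component of the early complex that binds the nascent precursor, had the highest mean CPM. It measured 80.03, 89.9 and 90.5 CPM in Ctrl and 185, 231 and 153 CPM in ALK. KO was at 77.1, 103 and 84.2 CPM and ALKKO at 85.4, 77.5 and 97.9 CPM. ALK2 was again the highest library and ALK3 the lowest tumor, still above KO2. The rise was 2.187-fold (log2 1.13 ± 0.17, edgeR adjusted p = 0.0016).

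Rrp9, a specific protein of the snoRNP that starts small-subunit processing, showed the largest change of the step. Ctrl libraries had 27.4, 32.8 and 27.8 CPM and ALK libraries 81.7, 77.9 and 60.7 CPM. KO libraries had 22.4, 39.4 and 30.2 CPM and ALKKO libraries 30.7, 23.0 and 30.0 CPM. The lowest tumor was well above the highest thymocyte library, KO2, and the log2 fold change was 1.32 ± 0.22 (edgeR adjusted p = 0.00235). Utp20, Rrp12, Ltv1 and Tsr1, which act from early assembly to export and late maturation in the cytoplasm, rose by log2 1.32, 1.28, 1.25 and 1.22. Nob1, the endonuclease that makes the last cut at the end of the small-subunit RNA, rose by log2 0.92 ± 0.13 (adjusted p = 0.0012) and varied little between the tumors (94.5, 94.6 and 98.3 CPM).

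The other 8 genes of this step were Utp18, Bysl, Noc4l, Utp14a, Heatr1, Nop14, Utp15 and Wdr75. Of these, Noc4l, Utp14a, Heatr1, Nop14, Utp15 and Wdr75 rose by log2 0.60 to 0.95. Utp18, part of the complex that handles the 5′ end of the precursor, was at 34.2, 40.4 and 39.8 CPM in Ctrl and at 45.6, 68.9 and 42.0 CPM in ALK. It stood at 35.9, 47.0 and 35.2 CPM in KO and at 33.3, 34.6 and 38.5 CPM in ALKKO. Only ALK2 was clearly apart and KO2 exceeded the other tumors, and neither Utp18 (log2 0.45 ± 0.20, edgeR adjusted p = 0.113) nor Bysl (log2 0.60 ± 0.28, adjusted p = 0.129) passed. Bysl, which encodes bystin, overlapped with Ctrl through ALK3 (46.6, 60.2 and 27.6 CPM in ALK against 24.3, 31.7 and 32.6 CPM in Ctrl).

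For assembly of the large subunit, 12 of 15 genes rose in ALK, 6 of them beyond the fold threshold, 1 fell, and the median log2 fold change was 0.84. Gnl3 (nucleostemin), a nucleolar GTP-binding protein abundant in stem and tumor cells, changed by a similar factor in every tumor. It was at 55.0, 70.4 and 60.1 CPM in Ctrl and at 149.6, 176 and 152 CPM in ALK. KO had 43.1, 64.3 and 52.0 CPM and ALKKO 47.0, 51.3 and 56.8 CPM. The lowest tumor was 2.12 times the highest Ctrl value, and the log2 fold change was 1.37 ± 0.17 (edgeR adjusted p = 0.000559). Against ALKKO it was 1.62 ± 0.17 (adjusted p = 0.000299).

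Rrs1, which helps to bring the small ribosomal RNA of the large subunit into the particle, had the largest log2 fold change of the step, and that value rested on ALK2. Its values were 47.6, 134 and 37.5 CPM in ALK against 23.4, 31.3 and 24.3 CPM in Ctrl. KO and ALKKO had 21.1, 27.2 and 22.0 CPM and 24.5, 25.1 and 23.4 CPM. The log2 fold change was 1.47 ± 0.40 (edgeR adjusted p = 0.0202), and it dropped to 0.67 without ALK2. Mrto4, the RNA methyltransferase Nop2 and Grwd1 rose by log2 1.33, 1.09 and 1.05, and Noc2l, Noc3l, Nop16, Ppan and Ddx18 by 0.83, 0.94, 0.83, 0.83 and 0.68. For Ddx18, an RNA helicase, 62.7% of the transcript windows are shared with other genes, so that its counts are partial too. Nip7 did not pass (log2 0.49 ± 0.20, adjusted p = 0.0857).

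Rrp1, a factor for early large-subunit processing, had the highest mean CPM of the step and the log2 fold change nearest to 0. It measured 326, 332 and 280.3 CPM in Ctrl and 379.6, 339 and 328 CPM in ALK. KO was at 279, 224 and 265 CPM and ALKKO at 289, 272 and 269 CPM. The tumors overlapped with Ctrl and the log2 fold change of 0.16 ± 0.13 did not pass (edgeR adjusted p = 0.37).

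Pes1, Bop1 and Wdr12 encode the 3 subunits of a single complex of large-subunit assembly, and they did not move together. Pes1 was at 60.8, 63.7 and 63.0 CPM in Ctrl and at 133, 139.8 and 120.4 CPM in ALK. Bop1 was at 76.0, 86.5 and 71.6 CPM in Ctrl and at 169.7, 117 and 131 CPM in ALK. Wdr12 was at 119, 116 and 98.3 CPM in Ctrl and at 62.6, 64.7 and 56.7 CPM in ALK. Thus every tumor lay above every Ctrl library for Pes1 and Bop1 and below every Ctrl library for Wdr12. Pes1 rose by log2 1.07 ± 0.13 and Bop1 by 0.84 ± 0.17 (edgeR adjusted p = 0.000657 and 0.00483), while Wdr12 fell, with a log2 fold change of -0.86 ± 0.26 (adjusted p = 0.0301). The fall of Wdr12 kept its sign in the 14 alternatives but passed the adjusted p in 8 of them, the adjusted p ranging from 0.00588 to 0.0836. The call ended without Ctrl1, Ctrl2, ALK1, ALK2 or ALK3 (adjusted p = 0.0836, 0.0761, 0.0509, 0.0583 and 0.0635) and with age as a covariate (0.0576).

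**Figure D3:**
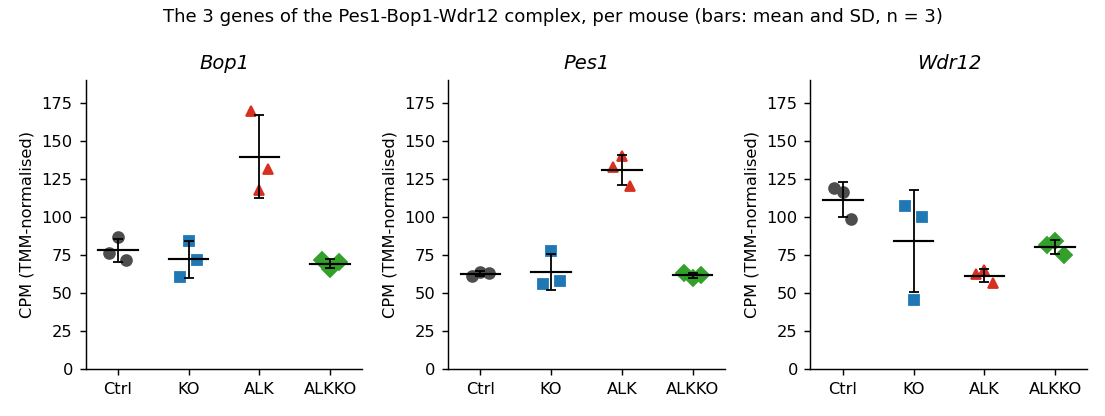
CPM per mouse (y axis) of Bop1, Pes1 and Wdr12 in the 4 groups (x axis), with 1 symbol per mouse and bars for mean and SD (n = 3). Bop1 and Pes1 are highest in ALK, whereas Wdr12 is lower in ALK than in Ctrl and lowest of all in KO2, at 45.5 CPM.

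In the other groups, Pes1 was at 56.0, 77.4 and 57.8 CPM in KO and 63.1, 59.7 and 61.8 CPM in ALKKO, and Bop1 at 60.4, 84.1 and 71.3 CPM and 71.8, 65.8 and 70.0 CPM. Wdr12 was at 107, 45.5 and 99.98 CPM in KO and 81.6, 83.9 and 75.1 CPM in ALKKO. The libraries with low Wdr12 were those with low T cell marker sums, namely the 3 tumors and KO2, and the part of cell composition in this was not tested. Wdr12 also lies opposite to the gene Carf on chromosome 1 (60069785 to 60098645, minus strand, mm10), and Carf was at 14.6 to 15.5 CPM in Ctrl, 8.68 CPM in KO2 and 14.9 to 22.7 CPM in ALK. Whether reads were assigned by strand is not given in the sources used here.

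The 4 abundant nucleolar proteins with several roles all rose beyond the fold threshold in ALK, with a median log2 fold change of 1.22. Ncl (nucleolin), an RNA-binding protein of the dense nucleolar region, had the highest mean CPM of the 46 genes. It was at 754, 918 and 799 CPM in Ctrl and at 1656, 2217 and 1550.2 CPM in ALK. KO had 759, 753 and 793 CPM and ALKKO 759.7, 794 and 759 CPM. The 9 thymocyte libraries stayed within 753 to 918 CPM, including KO2, and the tumors lay far above. Ncl rose 2.20-fold (log2 1.14 ± 0.16, edgeR adjusted p = 0.00112).

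Mybbp1a, a nucleolar protein that binds MYB and takes part in ribosomal RNA processing, had the largest log2 fold change of the 46 genes. Its level was 123, 137 and 134 CPM in Ctrl and 388, 443 and 379.8 CPM in ALK. KO was at 114, 199.95 and 136 CPM and ALKKO at 138, 136 and 139.8 CPM. All tumors were above KO2, the highest thymocyte library, and the log2 fold change was 1.62 ± 0.19 (edgeR adjusted p = 0.000451). Ddx21, a helicase that links RNA polymerase I transcription with processing, had the smallest change of these 4. It was at 142, 164 and 173 CPM in Ctrl and at 306, 444 and 288 CPM in ALK. KO had 159.9, 248.7 and 154 CPM and ALKKO 163, 176 and 175 CPM. The tumors did not overlap with any thymocyte library, and the log2 fold change was 1.12 ± 0.21 (adjusted p = 0.00437).

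Npm1 encodes nucleophosmin, the abundant chaperone whose human counterpart supplies the first part of the NPM-ALK fusion. It was at 249.7, 309 and 216 CPM in Ctrl and at 499, 780.0 and 633 CPM in ALK. KO was at 211, 267 and 203 CPM and ALKKO, which carries the transgene, at 192, 248.5 and 203 CPM. The ALKKO values lay within the range of KO and Ctrl except for the lowest, ALKKO1. Alk was at 49.0, 54.8 and 54.9 CPM in ALKKO and at 34.8, 50.2 and 54.2 CPM in ALK. Whether reads of the transgene add to the Npm1 count was not tested. In the tumors Npm1 rose 2.47-fold (log2 1.30 ± 0.21, edgeR adjusted p = 0.00185). Other genes contain 40.9% of its transcript windows, which makes its level a partial count.

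Divided by gene length, Npm1 had the highest group mean of the 46 genes in both Ctrl and ALK. In Ctrl its lead over Rrp1 was small, with 158.2 against 157.8 CPM per kilobase of the longest transcript. On the scale of CPM per kilobase of exon, group means in Ctrl were 97.0 for Npm1, 93.8 for Rrp1, 80.9 for Ncl, 51.4 for Nop10 and 48.6 for Noc2l. In ALK they were 239 for Npm1, 177 for Ncl, 105 for Rrp1, 86.3 for Noc2l and 69.5 for Mybbp1a. Rrp1 and Nop10, which did not pass the test, moved from ranks 2 and 4 of the 46 in Ctrl to ranks 3 and 8 in ALK. At the lower end, Polr1a went from 3.997 to 10.03 and Polr1b from 4.26 to 12.7 CPM per kilobase, while Wdr12 went from 9.31 to 5.13 and became the lowest of the 46.

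Some features of these genes bear on their counts. Reads of 50 bases were counted, and 6 of the 46 genes share at least 10% of their 50-base windows with transcripts of other genes, Fbl, Ddx18, Npm1, Nop56, Mrto4 and Pes1. Among the other 40 genes, 19 were called higher in ALK, 33 rose by the adjusted p alone, and the median log2 fold change was 0.97. The spans of Nop56, Nop58, Dkc1, Wdr43, Tsr1, Gnl3, Ppan and Ncl hold 23 annotated snoRNA genes, and another annotated gene overlaps an exon of 19 of the 46.

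ALK was next compared with ALKKO, which both carry NPM-ALK and differ in Dnmt1 as well as in being tumor or thymus. The 46 genes gave 29 called higher and 0 lower (background 7.03% higher), and 40 rose by the adjusted p alone (background 13.4%). ALK lay wholly above ALKKO for 44 genes (background 19.4%) and wholly below for 1, Wdr12, whose log2 fold change of -0.39 ± 0.26 did not pass (edgeR adjusted p = 0.281). The median log2 fold change was 1.09. The snoRNP genes had a median of 1.22 here and passed the adjusted p in 8 of 8. This comparison and that with Ctrl share the ALK libraries and are not independent.

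The effect of NPM-ALK in ALK against Ctrl was set against that in ALKKO against KO, both of which lack Dnmt1, in the same fit. ALK samples were tumor cells, and the labels give no Dnmt1 allele for them. The presence of Dnmt1 and the tumor state therefore cannot be told apart in this difference. For 26 of 46 genes the difference passed the adjusted p, all with the larger value in ALK against Ctrl (background 4.29% higher). Of them, 20 had a log2 difference above 1 (background 3.31%). Mybbp1a (1.74 ± 0.26, edgeR adjusted p = 0.00488), Gnl3 (1.41 ± 0.23, adjusted p = 0.00726) and Pes1 (1.12 ± 0.19, adjusted p = 0.00782) had the smallest adjusted p. Nop56 (0.58, adjusted p = 0.0526) and Fbl (1.05, adjusted p = 0.126) did not pass. The count depended on single libraries. It was 4 without Ctrl1, 9 without Ctrl2 or Ctrl3, 14 without KO3 or ALK2, 6 without ALKKO1 and 8 without ALKKO2 or ALKKO3, while the median difference stayed between 0.82 and 1.10 in all alternatives. Without KO2 18 genes passed, 10 of them with a log2 difference above 1.

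Of 100 further genes of the same pathway, 99 were found in the files and 97 were tested. In ALK against Ctrl, 59 rose (background 14.8%) and 1 fell by the adjusted p, 17 were called higher with the fold threshold (background 8.41%) and the median log2 fold change was 0.55. In ALKKO and KO against Ctrl and in ALKKO against KO, 0 passed in edgeR and 0 in DESeq2. An unadjusted p under 0.05 in edgeR was reached by 1, 3 and 0 genes, against 510, 886 and 432 of all 16052. The 3 largest values belonged to Mdn1 (log2 1.56 ± 0.28), the giant ATPase that strips factors from the large subunit, to Cd3eap (1.46 ± 0.18), a subunit of RNA polymerase I, and to Rrp15 (1.45 ± 0.26), with edgeR adjusted p = 0.00319, 0.000622 and 0.00328. Cd3eap was at 13.9, 13.6 and 14.3 CPM in Ctrl and at 40.4, 42.4 and 32.6 CPM in ALK, a change like that of Polr1a and Polr1b.

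The 3 smallest values were those of Taf1c, Ddx54 and Ubtf, and Taf1c and Ubtf act at the ribosomal promoter itself. Ubtf, the factor that keeps ribosomal genes open, was at 363, 381 and 314 CPM in Ctrl and at 279.6, 260.1 and 262 CPM in ALK. It measured 305, 286 and 291 CPM in KO and 281, 324 and 263 CPM in ALKKO. All tumors lay below all Ctrl libraries but not below all of KO and ALKKO, and Ubtf fell relative to Ctrl (log2 -0.40 ± 0.12, edgeR adjusted p = 0.0314). Taf1c, of the selectivity factor, had a log2 fold change of -0.80 ± 0.39 and Ddx54 one of -0.42 ± 0.14, and neither passed (adjusted p = 0.15 and 0.0502). Of the 11 further genes of the RNA polymerase I step, 5 rose and 1 fell. In the other steps 6 of 8 rose for snoRNPs, 23 of 40 for the small subunit and 25 of 38 for the large subunit (background 14.8% for each), and differences between the steps were not tested.

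**Figure D4:**
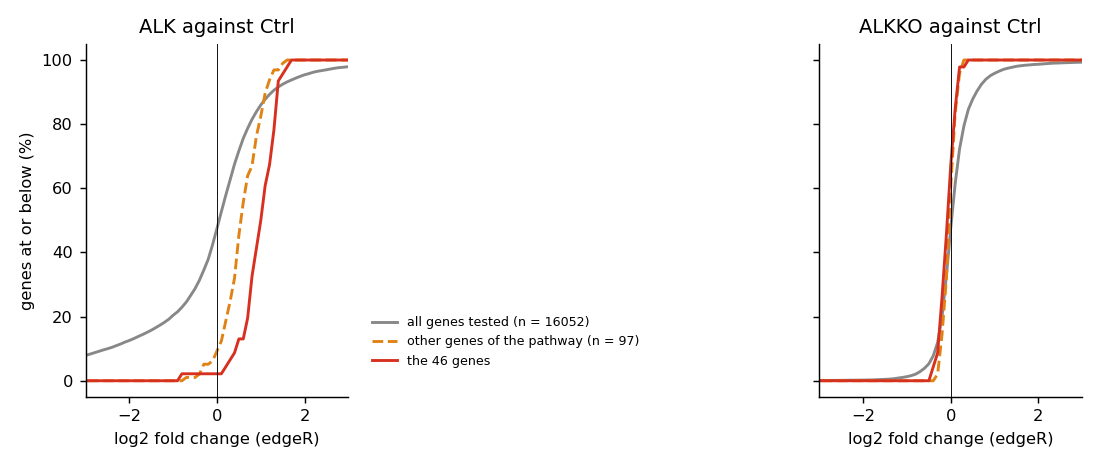
Share of genes (y axis, percent) with a log2 fold change at or below the value on the x axis, for the 46 genes, the 97 other pathway genes and all 16052 genes tested, in ALK against Ctrl (left) and ALKKO against Ctrl (right). In ALK 2.17% of the 46 genes and 9.28% of the other pathway genes lie at or below 0 against 47.5% of all genes, and in ALKKO 67.4% and 60.8% do against 47.7%.

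Myc and proliferation markers were read beside these genes. Myc was at 69.7, 75.8 and 77.3 CPM in Ctrl and at 244, 276 and 216 CPM in ALK, and rose by log2 1.72 ± 0.21 (edgeR adjusted p = 0.000553). In ALKKO it was at 55.5, 59.0 and 94.1 CPM and in KO at 56.9, 76.6 and 70.3 CPM. The order of the 3 tumors in Myc, with ALK2 highest and ALK3 lowest, was also their order in the median of the 46 genes. The 2 orders also matched in KO, with KO2 highest and KO1 lowest, and in ALKKO, with ALKKO3 highest and ALKKO1 lowest. The medians of ALKKO1 and ALKKO2 were close, at -0.104 and -0.101. In Ctrl the orders differed, with Ctrl3 highest in Myc and Ctrl2 highest in the median of the 46 genes. A link between Myc and these genes was not tested.

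Proliferation markers were read in the same way. Of 10 such genes, 0 passed in ALK against Ctrl in edgeR, 0 in DESeq2 and 0 at an unadjusted p under 0.05 in edgeR, with a median log2 fold change of 0.50. Their summed level was 5156 CPM in ALK1, 4700 CPM in ALK2 and 2260 CPM in ALK3, against 2703 to 3428 CPM in Ctrl. Mki67 was at 1575, 1377 and 589 CPM in ALK and at 780.3, 885 and 747 CPM in Ctrl. ALK3 had a lower proliferation sum than any Ctrl library. It was also the tumor with the lowest median of the 46 genes (0.72). In ALK3, 42 of the 46 genes lay above all Ctrl libraries, as did 6467 of all 16052 genes tested. KO2, with the lowest proliferation sum of all (1481 CPM), had 21 of the 46 above all Ctrl libraries, against 0 in KO1 and 2 in KO3. Over all 16052 genes tested, 6433 lay above all Ctrl libraries in KO2, 5082 in KO1 and 4814 in KO3. The part of proliferation, of Myc or of cell mix in the level of the 46 genes was not tested.

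**Figure D5:**
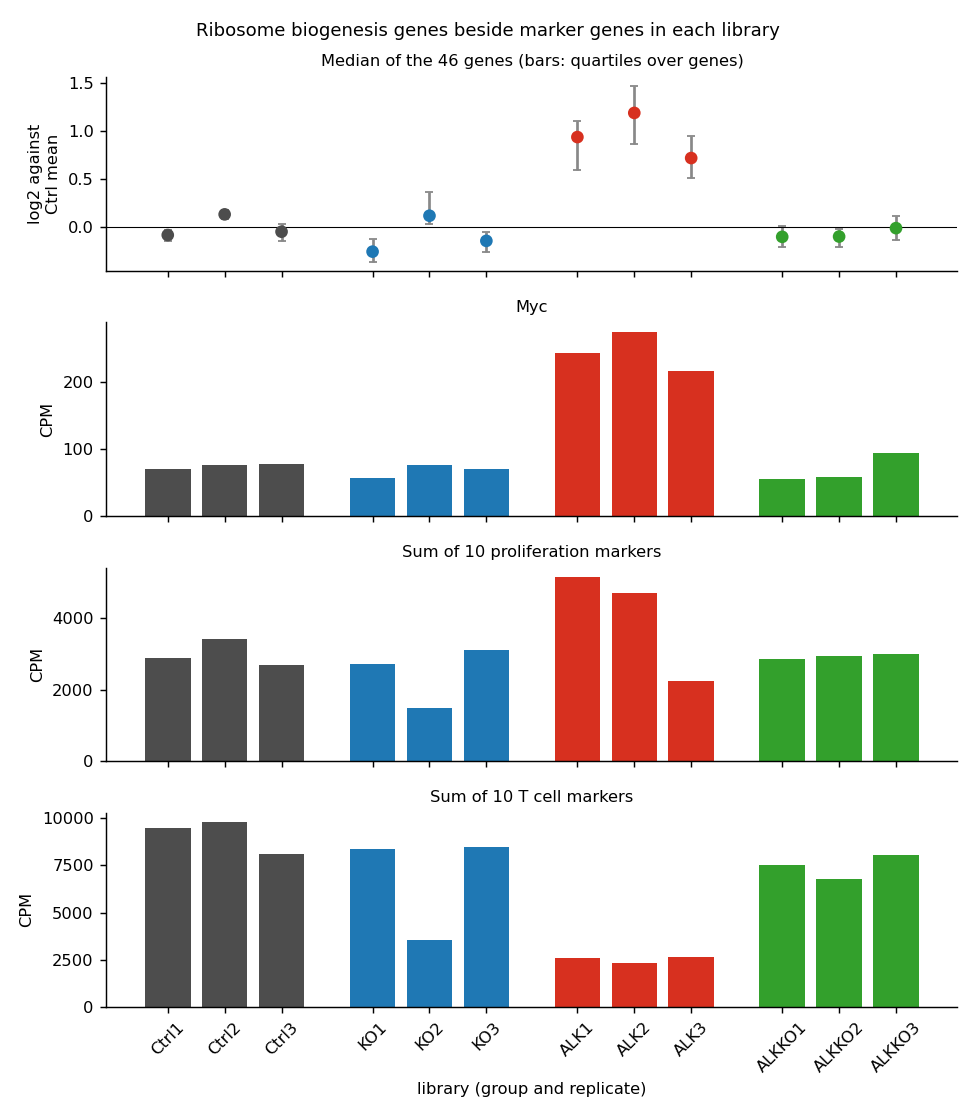
From top to bottom, the median log2(CPM + 1) of the 46 genes against the Ctrl mean (bars give the quartiles over genes), Myc, the sum of 10 proliferation markers and the sum of 10 T cell markers (CPM), for each of the 12 libraries (x axis, coloured by group). The 46 genes and Myc are high in all 3 ALK libraries, whereas the proliferation sum is high in ALK1 and ALK2 only and the T cell sum is low in ALK and KO2.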

How the data were processed

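RNA of the samples called thymocytes and tumor cells was isolated by the authors from homogenized thymus and tumor tissue. It was sequenced as stranded poly(A) libraries with 50-base single-end reads. Reads were trimmed with Trim Galore, aligned to mm10 with STAR and counted per gene with HTSeq. The deposited values are raw read counts, 1 table per mouse. The labels also name FastQC, DESeq2 and Picard 2.19.2, and the annotation release and the strand setting of the counting are not given in the sources used here. Of 50600 identifiers, 50376 were matched to symbols of GENCODE M21 (GRCm38), which also supplied gene lengths and overlaps.

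The main test was the robust quasi-likelihood test of edgeR 4.0.16 (R 4.3.3) after filterByExpr and TMM scaling, fitted on all 12 libraries with 1 term per group, with Benjamini-Hochberg adjustment over 16052 genes. Calls used an adjusted p under 0.05, with or without a log2 fold change beyond 1. The standard error was derived from the F statistic. CPM are TMM-normalised, and per-library medians used log2(CPM + 1). DESeq2 1.42.0 was an alternative. The code was tested on simulated counts.

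The 46 genes, the pathway list, the marker lists and the tests were chosen with earlier results of these data known, and a list's count is a description. Per-mouse values were printed for the gene with the highest mean CPM and the genes with the largest and smallest fold change of each step, and for a set of core genes regardless of values. Of the pathway list the 3 largest and the 3 smallest fold changes were named, and Myc, Mki67, Dnmt1 and Alk were fixed as values beside the results. Heatr1, Nob1 and other genes were named where a count was 6 or less. Labels do not say whether replicate mice shared litters, so p-values measure the spread between these samples. Libraries held 12473857 to 18864327 gene reads, and a count of 3 corresponded to 0.159 to 0.241 CPM. Protein sequences were not analysed here, and 1 gene of the pathway list was not used here.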

Additional observations from a re-analysis of the deposited data

Results flagged for a closer look

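For 26 of the 46 genes the log2 fold change in ALK against Ctrl differed from that in ALKKO against KO by the edgeR test of the difference itself. The p was adjusted over all genes tested, of which 4.29% passed in the same direction. With 1 library left out, between 4 and 29 of the 46 genes passed. The log2 differences of the 26 genes, (ALK minus Ctrl) minus (ALKKO minus KO), were 1.61 for Polr1a, 1.502 for Polr1b and 0.75 for Rrn3 in the RNA polymerase I step. Among snoRNP genes they were 1.17 for Nop58, 0.96 for Dkc1, 1.07 for Nhp2, 0.94 for Gar1 and 1.22 for Nolc1. Among small-subunit genes they were 0.70 for Nop14, 1.46 for Rrp9, 1.48 for Rrp12, 1.42 for Utp20, 1.15 for Wdr43, 0.91 for Nob1 and 1.23 for Tsr1. Among large-subunit genes they were 1.19 for Nop2, 0.90 for Bop1, 1.12 for Pes1, 1.19 for Noc3l, 1.41 for Gnl3, 1.05 for Grwd1 and 1.18 for Mrto4. Of the multifunctional nucleolar proteins, Npm1 had 1.39, Ncl 1.13, Mybbp1a 1.74 and Ddx21 1.25. ALK samples were tumor cells and the other groups thymocytes, so the presence of Dnmt1 and the tumor state cannot be told apart here. With 3 mice per group no single-sample check of extreme values was made.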

How the results depend on the processing

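In ALK against Ctrl the number of genes called ranged from 19 to 26 over the other tests, normalizations, filters and covariates and over the 40 genes with few shared windows, a restriction chosen after seeing the data, and from 11 to 25 when 1 library was left out, the lowest value being that without ALK2. In ALKKO against Ctrl, KO against Ctrl and ALKKO against KO, 0 genes passed in every alternative run. The difference of the NPM-ALK effects was the least stable count. It gave 13 called genes in place of 20 without TMM factors, and 15 without a filter or 17 with at least 10 counts in every library in place of 26 by the adjusted p alone. With 1 library left out it gave 4 to 22 called genes and 4 to 29 by the adjusted p alone, and the cause was not tested. The median of ALKKO against KO, -0.01, turned to 0.0674 without TMM factors and ranged from -0.0928 to 0.120 with 1 library left out, and that of ALKKO against Ctrl ranged from -0.138 to -0.0148. Without TMM factors 9 genes in place of 4 did not overlap between KO and Ctrl and 2 in place of 1 between ALKKO and KO. The shares over all genes without TMM factors are not given here, so these counts are no result about the 46 genes. Whether replicate numbers pair the mice is not known. Correlations of deviations ranged from -0.11 to 0.43 over 18 same-numbered pairs, 5 of them over 0.1. With the replicate block 23 genes were called in ALK against Ctrl, 40 passed the adjusted p alone and 18 were called for the difference of effects. Each of the 46 genes had at least 138 reads in every library, and the limits set by depth and by 3 mice per group were not tested.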

Other observations

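Spread between mice differed by group. The median coefficient of variation of CPM over the 46 genes was 10.2% in Ctrl, 18.2% in KO, 19.8% in ALK and 7.12% in ALKKO, against medians of 13.1%, 26.7%, 34.0% and 15.3% over all genes tested. In ALK the values ranged from 1.06% for Polr1c and 2.30% for Nob1 to 72.5% for Rrs1. Among KO libraries, KO2 held the highest value for 41 of the 46 genes and the lowest for 3, Wdr12, Rrp1 and Ncl.

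Other marker sums that varied within groups were those of fat and heart muscle (23.3 to 5281 CPM over the 12 libraries, the highest in KO3) and of erythroid cells (22.3 to 1989 CPM), and Itgam of the myeloid list was listed at 0 in all libraries.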
